A study of Schizosaccharomyces pombe with 4 samples.

Results

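The subject is the 4 genes of fission yeast, Schizosaccharomyces pombe, that the RefSeq annotation names pdc101 (SPAC1F8.07c), pdc102 (SPAC186.09), pdc201 (SPAC3G9.11c) and pdc202 (SPAC13A11.06) and describes as pyruvate decarboxylases. They were chosen by these names from the 7092 genes listed in the files, and all 4 were found. Total RNA was sequenced in 2 libraries labelled loz1 delta (called delta-labelled here) and in 2 wild-type libraries. Loz1, a zinc finger protein, is a repressor active at high zinc, and both strains had been given zinc: they grew in a zinc-limited minimal medium (EMM) to which, as the labels state it, 100 mM zinc was added, to an OD600 of about 6.0. Whether that unit is a misprint for micromolar could not be settled from the labels, so the concentration is uncertain. The labels give no other allele, no mating type and no description of the deleted part, and do not say whether the libraries of a group stem from separate cultures. The p-values therefore measure the spread between these libraries, which may be technical.

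The level of a gene is given in FPKM, sequenced fragments divided by transcript length and by the mapped total, as the authors deposited it. Bounds that Cufflinks, the program named in the files, gives beside each value put the depth at an estimated 1.6e+07 to 1.82e+07 fragments per library, and such bounds cover counting error only. The loz1 transcript went against the label, at 56.4 and 56.0 FPKM in the delta-labelled libraries, against 6.87 and 5.81 FPKM in wild type, so the groups are named as labelled throughout. Changes are differences in log2(FPKM + 1), delta-labelled minus wild type, tested with limma over 6315 genes of at least 1 FPKM on average. A gene was called at a Benjamini-Hochberg adjusted p under 0.05, and 16.3% of tested genes were called, 11.9% higher and 4.37% lower. Over all tested genes the median change was 0.13, a shift that the changes given here include unless they are said to be rescaled. FPKM are relative to all RNA sequenced, so a change in total RNA per cell cannot be seen, and RNA from more cells and more RNA per cell cannot be told apart in a culture.

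Pyruvate decarboxylase removes carbon dioxide from pyruvate, the end product of glycolysis, and leaves acetaldehyde. Alcohol dehydrogenase then reduces acetaldehyde to ethanol and returns the NAD+ that glycolysis uses. The enzyme holds thiamine diphosphate, the active form of vitamin B1, and a magnesium ion in its active site. Fission yeast ferments glucose to ethanol even with oxygen present, and this reaction is where fermentation leaves the route to the mitochondria.

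The 4 genes form a pair of subfamilies. The coding sequences encode 569 residues in pdc101, 572 in pdc102, 570 in pdc201 and 571 in pdc202. In pairwise alignments 57.7% of aligned residues were identical between pdc101 and pdc102 and 58.9% between pdc201 and pdc202. Between the subfamilies identity was 30.6% to 33.0%. At the level of coding bases it was 57.5% and 59.3% within the subfamilies and 44.6% to 47.1% between them, as the plot of identities shows. The numbering of the gene names thus follows the sequences.

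**Figure D1:**
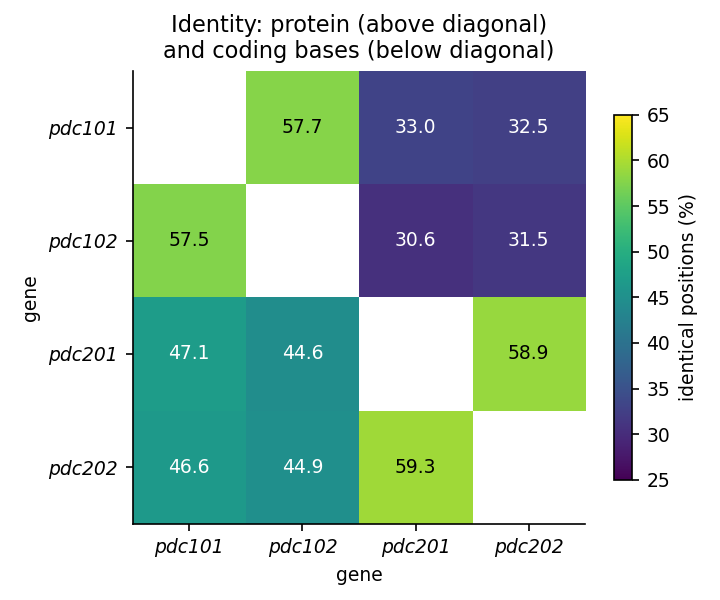
Percent identity between the 4 genes in pairwise alignments of the encoded proteins (above the diagonal) and of the coding bases aligned by codon (below the diagonal). The squares for pdc101 with pdc102 and for pdc201 with pdc202 are the brightest, at 57.5% to 59.3%, and the remaining ones lie at 30.6% to 47.1%.

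The stretch that encodes the thiamine diphosphate binding motif is shown because it is the part of the protein that all enzymes of this class share, and because it shows how far the genes can be told apart by their reads. The motif was searched as glycine, aspartate and glycine followed 20 to 35 residues later by a pair of asparagines. It occurred once in each protein, with 24 residues between the fixed parts, starting at residue 445 in pdc101, 449 in pdc102, 450 in pdc201 and 449 in pdc202. Sequences are from RefSeq assembly ASM294v3, 5′ to 3′ along the coding strand, and capitals mark the codons of the fixed residues. The stretches lie on chromosome I, at chrI:102126-102212 on the minus strand for pdc101, and on the plus strand at chrI:5554155-5554241 for pdc102, chrI:3161577-3161663 for pdc201 and chrI:586941-587027 for pdc202.
pdc101: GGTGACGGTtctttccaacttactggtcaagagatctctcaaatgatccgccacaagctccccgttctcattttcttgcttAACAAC
pdc102: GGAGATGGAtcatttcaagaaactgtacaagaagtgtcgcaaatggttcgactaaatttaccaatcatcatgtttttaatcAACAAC
pdc201: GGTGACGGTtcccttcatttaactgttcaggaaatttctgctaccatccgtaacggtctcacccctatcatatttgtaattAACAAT
pdc202: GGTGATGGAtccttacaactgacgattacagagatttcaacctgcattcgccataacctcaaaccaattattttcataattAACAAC

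Over these 87 bases the 6 pairs of genes differed at 30 to 38 bases, and pdc101 and pdc201 differed at 30. The longest run of identical bases shared by the coding sequences of any pair was 20 bases, between pdc101 and pdc102. No stretch of 50 bases of any of the 4 genes occurred a second time in the reference genome, on either strand. Opposite changes of pdc101 and pdc201 are therefore not measured on shared sequence of that length.

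Transcripts of pdc101 were higher and those of pdc201 lower in the delta-labelled libraries, relative to wild type, so that the gene with the most pyruvate decarboxylase RNA was pdc101 in the delta-labelled libraries and pdc201 in wild type. The gene pdc202, at a far lower level, was lower too, and pdc102 was close to 0 in all 4 libraries. The groups did not overlap for pdc101, pdc201 and pdc202. With 2 libraries per group unchanged genes can separate in this way too, and how many of all tested genes do was not counted. Separation of the groups, here and below, therefore describes the values and is no evidence of a change. For pdc102 too few fragments were read to tell.

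The gene pdc101 lies near the left end of chromosome I (101715 to 103594 in the files, minus strand, 1 exon), 101.7 kb from it. It was at 1489 and 1529 FPKM in the delta-labelled libraries, against 474 and 554 FPKM in wild type. Cufflinks' bounds ran from 1475 to 1503 and from 1516 to 1543 FPKM in the delta-labelled libraries, and from 466 to 482 and from 545 to 563 FPKM in wild type. Counting error was therefore small beside the difference between the groups, and both delta-labelled libraries were above both wild-type libraries. The means were 1509 ± 28.4 FPKM in the delta-labelled and 514 ± 56.6 FPKM in the wild-type libraries (SD, n = 2 each), a ratio of 2.94 and a rise of 1.56 ± 0.13 on the log2 scale (SE, limma, adjusted p = 0.0042). Ranked by FPKM among 5106 protein-coding genes, pdc101 stood at 120 and 127 in the delta-labelled libraries, against 349 and 306 in wild type.

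The gene pdc201 lies 2416.9 kb from the nearer end of the same chromosome (3159753 to 3162245, plus strand, 1 exon). It was at 436 and 414 FPKM in the delta-labelled libraries, against 1461 and 1240 FPKM in wild type. Here both delta-labelled libraries were below both wild-type libraries, and the wild-type pair lay further apart than the delta-labelled pair. The means were 425 ± 15.6 FPKM in the delta-labelled and 1350 ± 156 FPKM in the wild-type libraries (SD, n = 2 each), a ratio of 0.315, and pdc201 fell by 1.66 on the log2 scale (SE 0.13, limma, adjusted p = 0.00378). Its rank among protein-coding genes was 373 and 385 in the delta-labelled libraries and 162 and 189 in wild type, close to a mirror image of the ranks of pdc101.

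The gene pdc202 (chromosome I, 585355 to 587495, plus strand, 1 exon) was at 13.8 and 11.9 FPKM in the delta-labelled libraries, against 21.3 and 22.6 FPKM in wild type. Both delta-labelled libraries were below both wild-type libraries, and the bounds, from 10.4 to 15.4 FPKM over the delta-labelled and from 19.2 to 24.8 FPKM over the wild-type libraries, did not meet. It fell by 0.73 (SE 0.14, limma, adjusted p = 0.0347). In FPKM pdc201 was 31.6 and 34.9 times as high as pdc202 in the delta-labelled libraries, against 68.6 and 54.8 times in wild type.

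The value of pdc202 is uncertain because 2 non-coding RNAs on the opposite strand, SPNCRNA.662 and SPNCRNA.553, each cover its whole transcript. No source used here states a strand-marking kit, and without one the reads of these transcripts cannot be told apart. SPNCRNA.662 was at 11.0 and 11.4 FPKM in the delta-labelled libraries, against 13.1 and 14.0 FPKM in wild type, and was not called (adjusted p = 0.262). SPNCRNA.553 was at 0.589 and 0.0270 FPKM in the delta-labelled libraries and under 0.01 FPKM in wild type, and was too low to be tested. Summed over the 3 transcripts the locus was at 25.4 and 23.3 FPKM in the delta-labelled libraries, against 34.4 and 36.7 FPKM in wild type. This sum, chosen after seeing the data, also fell, by 0.53 (SE 0.12, limma, adjusted p = 0.044), so the locus as a whole was lower as well. The share of the locus given to pdc202 was 54.2% and 51.0% in the delta-labelled libraries and 61.8% and 61.7% in wild type.

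The gene pdc102 (chromosome I, 5552811 to 5554529, plus strand, 1 exon) lies 24.6 kb from the right end of the chromosome. It was at 0.142 and 0.232 FPKM in the delta-labelled libraries, against 0 and 0.0750 FPKM in wild type. The bounds correspond to about 4 and 7 fragments in the delta-labelled libraries and about 0 and 2 fragments in wild type. At this depth no difference can be read from these values, and the gene was not tested. The 3 members that were tested were all called, 1 higher and 2 lower, against 11.9% and 4.37% of all tested genes.

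**Figure D2:**
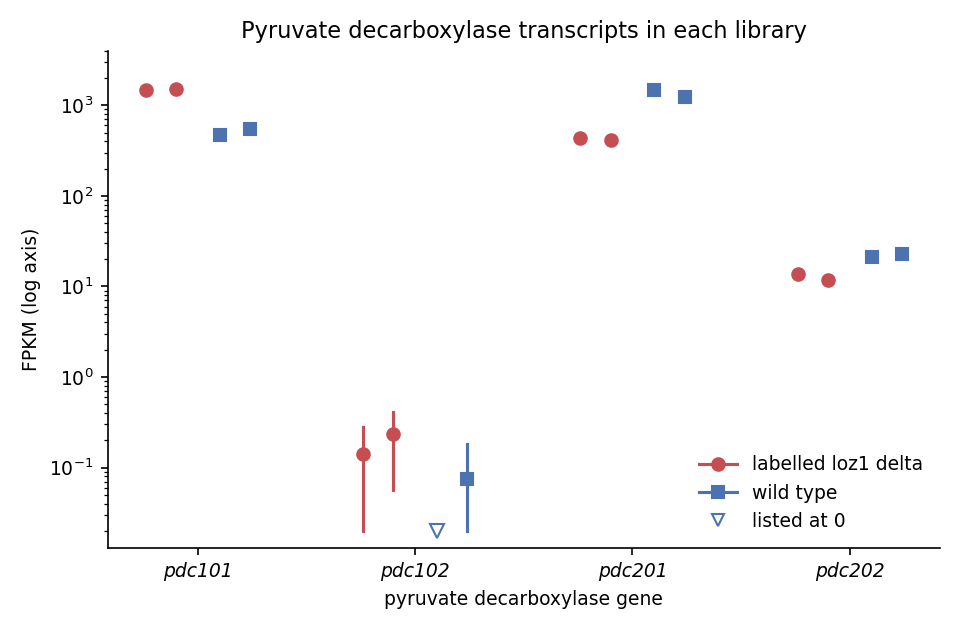
Level of each pyruvate decarboxylase gene in FPKM (log axis) in the 2 libraries labelled loz1 delta (circles, left) and the 2 wild-type libraries (squares, right), with vertical lines for Cufflinks' bounds where they are wider than the symbol and cut at 0.02 FPKM. The order of pdc101 and pdc201 is opposite in the groups, pdc202 lies between 11.9 and 22.6 FPKM, and pdc102 stays under 0.24 FPKM, with 1 wild-type library listed at 0.

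Each library can be described by the make-up of its pyruvate decarboxylase RNA, a measure that does not change with the scaling of whole libraries. The share of pdc101 was 76.8% and 78.2% of the family total in the delta-labelled libraries and 24.2% and 30.5% in wild type. The share of pdc201 was 22.5% and 21.2% in the delta-labelled libraries and 74.7% and 68.2% in wild type. The shares of the pair thus changed places, with a mean difference, delta-labelled minus wild type, of 50.1 percentage points for pdc101 and -49.6 points for pdc201. The share of pdc202 was 0.711% and 0.607% in the delta-labelled libraries and 1.09% and 1.25% in wild type, and that of pdc102 was at most 0.0119% in any library.

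The ratio of pdc101 to pdc201 was 3.42 and 3.70 in the delta-labelled libraries and 0.325 and 0.447 in wild type. Any delta-labelled library exceeded any wild-type library by 7.64-fold to 11.4-fold in this ratio. An exact two-sided permutation test over the 4 libraries gave p = 0.333 for the ratio and for each share. That is the smallest p that 2 against 2 libraries allow, and any full separation of the groups gives it. The test therefore cannot decide whether the make-up shifted, and the separation of the values adds nothing to it. What remains are the tests of the single genes, whose calls were lost when either delta-labelled library was left out.

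The family total differed far less than its main parts. As deposited it was 1939 and 1955 FPKM in the delta-labelled libraries and 1956 and 1816 FPKM in wild type. The delta-labelled values fell within the range of the wild-type values, and the ratio of any delta-labelled library to any wild-type library lay between 0.991 and 1.08. The means were 1947 ± 11.5 FPKM in the delta-labelled and 1886 ± 98.8 FPKM in the wild-type libraries (SD, n = 2 each), and the exact permutation test gave p = 1.0. With so few libraries this does not show that the totals were equal. After median-ratio rescaling the groups did not overlap, at 1809 and 1899 FPKM in the delta-labelled libraries, against 1999 and 1962 FPKM in wild type, with ratios of 0.905 to 0.968 between libraries and an exact permutation p = 0.333, the smallest possible. The size and sign of the difference depend on the scaling: as a log2 ratio it was 0.05 as deposited, -0.10 after median-ratio rescaling and 0.25 after quantile normalization. These values are small beside the changes of 1.56 and -1.66 of the genes that make up the total. As a part of all FPKM in a library the family took up 0.185% and 0.192% in the delta-labelled libraries and 0.165% and 0.138% in wild type. On this measure the log2 ratio was largest, at 0.32, and the groups did not overlap (exact permutation p = 0.333, the smallest possible). Summed FPKM was itself higher in wild type, at 1.05e+06 and 1.02e+06 in the delta-labelled libraries, against 1.19e+06 and 1.32e+06 in wild type.

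**Figure D3:**
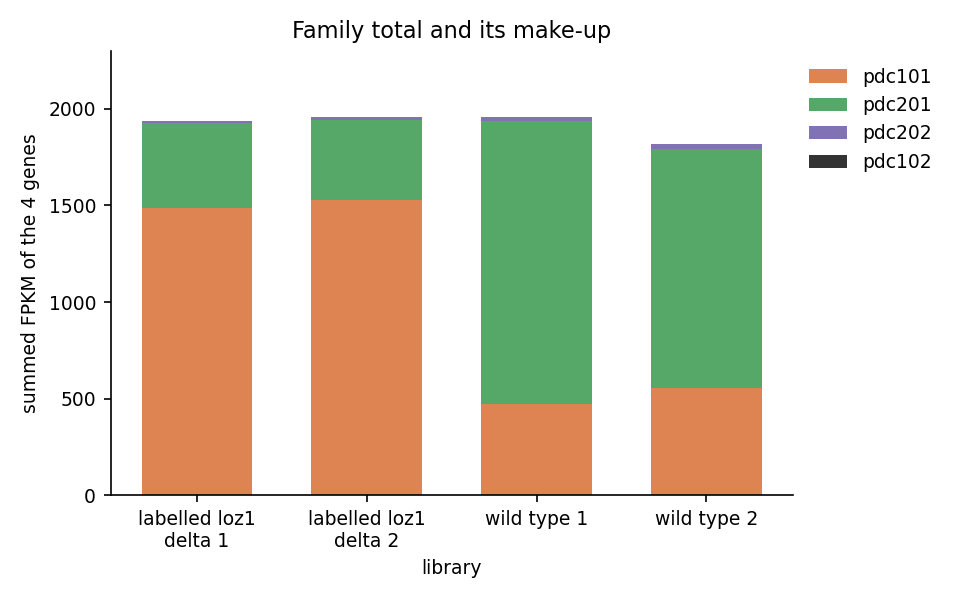
Summed FPKM of the 4 genes in each library, stacked by gene, with the libraries labelled loz1 delta at the left and wild type at the right. The bars reach 1816 to 1956 FPKM, while the pdc101 part is 1489 and 1529 FPKM in the delta-labelled libraries and 474 and 554 FPKM in wild type, and the pdc102 part is too small to be seen.

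The calls of pdc101, pdc201 and pdc202 were all lost when either delta-labelled library was left out, with adjusted p = 0.0736 to 0.0826 for pdc101 and pdc201 and 0.279 to 0.38 for pdc202 in limma, although the changes themselves moved little. Such a fit takes its spread from the wild-type pair, and over all tested genes the median distance within a pair was 0.09 (log2) for the delta-labelled and 0.24 for the wild-type libraries.

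The transcripts next to the genes did not move as a block. Beside pdc101, the glycoprotein gene pfl8 was at 24.4 and 25.7 FPKM in the delta-labelled libraries, against 24.5 and 29.8 FPKM in wild type. On the other side, 346 bases away and on the opposite strand, SPAC1F8.08 was at 10.7 and 12.2 FPKM in the delta-labelled libraries, against 9.82 and 17.9 FPKM in wild type. For both neighbours the groups overlapped, and neither was called (adjusted p = 0.622 and 0.657, limma).

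Before pdc201, 632 bases away on the same strand, the non-coding RNA SPNCRNA.217 was at 7.77 and 9.04 FPKM in the delta-labelled libraries, against 31.4 and 37.8 FPKM in wild type. It was lower in both delta-labelled libraries, with a change of -1.92 ± 0.16 (SE, limma, adjusted p = 0.0042), near that of pdc201 itself. On the other side ppt2, which RefSeq describes as a holo-[acyl-carrier-protein] synthase, ends 73 bases from the end of pdc201 on the opposite strand. It was at 41.6 and 38.2 FPKM in the delta-labelled libraries, against 18.4 and 20.1 FPKM in wild type, and rose by 1.02 ± 0.12 (SE, limma, adjusted p = 0.0105). The neighbours of pdc201 were thus called in opposite directions, and how far reads that run past the end of a gene add to the next was not tested.

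Near pdc102, SPAC186.08c, annotated as an L-lactate dehydrogenase, was under 0.35 FPKM in each library. SPAC750.01 of the aldo/keto reductase family, 1186 bases beyond pdc102, was at 60.9 and 61.4 FPKM in the delta-labelled libraries, against 20.5 and 24.4 FPKM in wild type, and rose by 1.41 ± 0.13 (SE, limma, adjusted p = 0.00475). The region is therefore not without transcripts, and the near absence of reads was seen in pdc102 and SPAC186.08c but not in SPAC750.01.

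**Figure D4:**
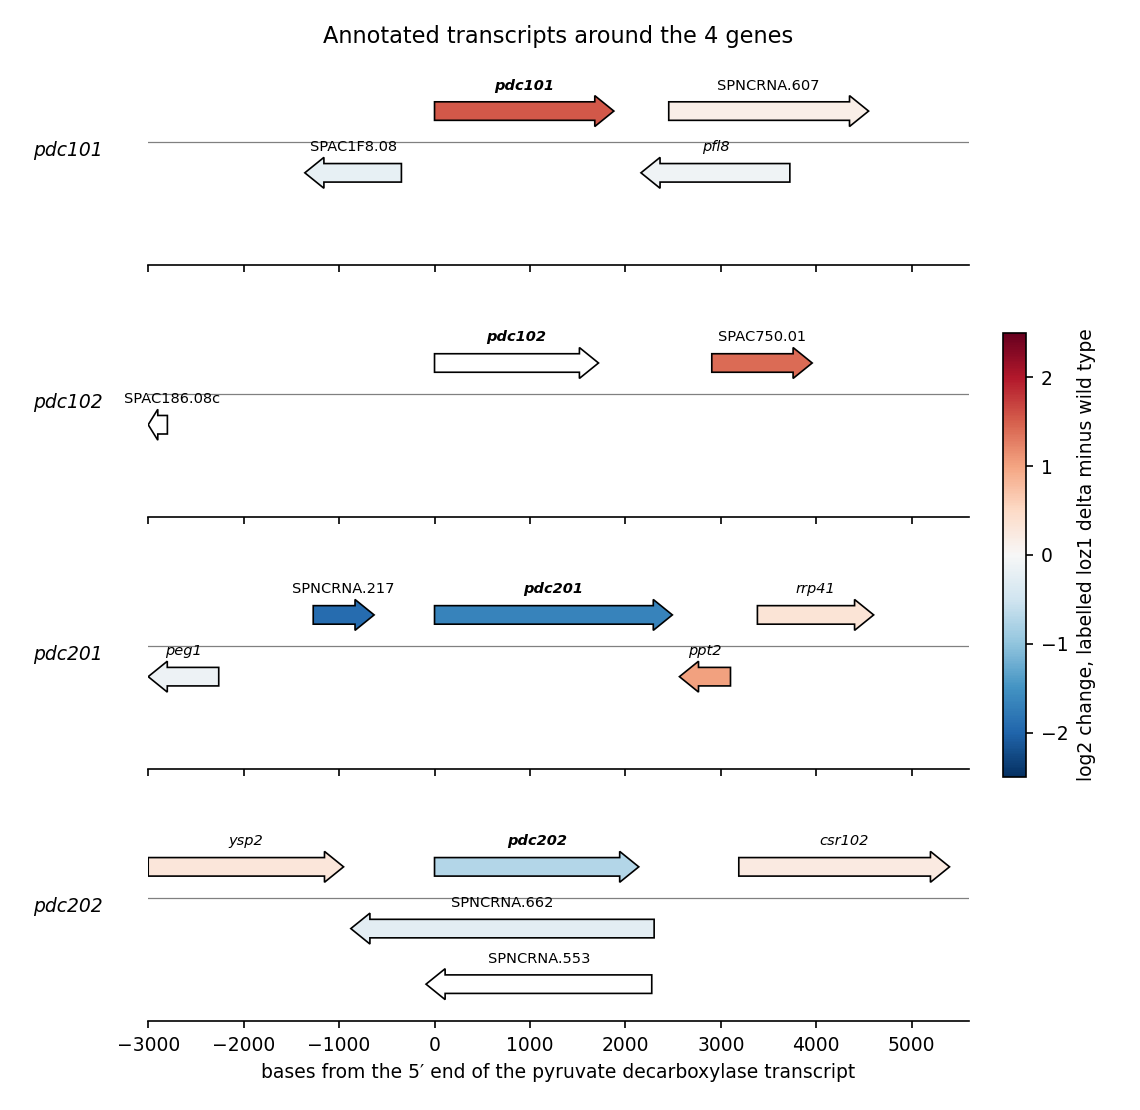
Annotated transcripts within 3000 bases of each pyruvate decarboxylase gene, drawn to scale from the 5′ end of that gene, with its strand above the line and the opposite strand below, and features of under 150 bases in the window left out. The colour gives the log2 change of tested transcripts, and white arrows were not tested. SPNCRNA.217 (-1.92) has a colour near that of pdc201 (-1.66), while ppt2 (1.02) has the opposite one.

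Loz1 is known to act through a DNA element with the core CGNNGATC. The core was searched on both strands from 250 bases before to 50 bases after the gene start in RefSeq, where 3.68% of 5112 protein-coding genes hold it, and none of the 4 pyruvate decarboxylase genes held it in this window. The shorter GATC, which is part of that core and is present in 42.6% of the windows, occurred once in pdc101, 208 bases before the start, and in pdc201 at 157 and 88 bases before the start. It did not occur in pdc102 or pdc202. The starts of pdc102 and pdc202 in RefSeq are those of their coding sequences, so their windows differ in kind from those of pdc101 and pdc201.

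Profiles most like those of the members were ranked by the distance between log2(FPKM + 1) values over the 4 libraries, each gene centred on its own mean. For pdc101 the nearest of 5696 genes were SPCC70.08c, annotated as a methyltransferase, at a distance of 0.08, the citrate transporter gene mce1 at 0.09 and SPAC4H3.01, a DNAJ domain protein gene, at 0.13. SPCC70.08c was at 852 and 925 FPKM in the delta-labelled libraries, against 287 and 341 FPKM in wild type. For pdc201 the nearest were the non-coding RNAs SPNCRNA.836, SPNCRNA.1290 and SPNCRNA.989, at distances of 0.10, 0.11 and 0.16. For pdc202 they were the nitric oxide dioxygenase gene yhb1 at 0.05, SPNCRNA.1650 at 0.07 and mfs3, annotated as a spermidine family transporter, at 0.08. With 4 libraries in a pair of groups, such a profile holds little beyond the group difference.

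Genes of the surrounding pathway were taken from 5 lists with 38 genes, all of which were tested. The lists were chosen with earlier results of these data known, so their counts are not free of that choice. Of these 11 rose and 2 fell, where 11.9% and 4.37% of all tested genes did, with a median change of 0.40 against 0.13 over all tested genes, and after median-ratio rescaling 8 rose and 2 fell, where 6.78% and 5.11% of all tested genes did. Of the 13 called, adh1 and adh4 were the 2 that stayed called in both fits that left out a delta-labelled library.

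On the way from glucose to pyruvate, 3 of 13 glycolysis genes rose, the hexokinase genes hxk2 and hxk1 and the triosephosphate isomerase gene tpi1, and 1 fell, the enolase gene eno102. Over all tested genes 11.9% rose and 4.37% fell, with a median change of 0.13. The list had a median change of 0.42. That is the value of gpm1, which was not called, at 3554 and 3923 FPKM in the delta-labelled libraries. In wild type gpm1 was at 1870 and 4172 FPKM, so the groups overlapped. The call of tpi1 was lost after rescaling, and other transcripts cover 78.5% of eno102 and 22.6% of hxk2. The change of eno102 was -1.39 ± 0.23 (SE, limma, adjusted p = 0.0246), and its paralogue eno101 was at 4297 and 4704 FPKM in the delta-labelled libraries, against 1988 and 3497 FPKM in wild type and was not called (adjusted p = 0.148). The enolase pair thus had values in opposite directions as the main decarboxylase pair did, though eno101 did not pass the test. Pyruvate kinase, encoded by pyk1, makes the substrate of the decarboxylases. It was at 1145 and 1254 FPKM in the delta-labelled libraries, against 725 and 948 FPKM in wild type and was not called (adjusted p = 0.0979). Neither were pfk1 (0.39), which encodes phosphofructokinase, and the glyceraldehyde-3-phosphate dehydrogenase gene tdh1 (-0.68).

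After the decarboxylase step, 1 of 5 dehydrogenase and acetate genes rose and 1 fell, where 11.9% and 4.37% of all tested genes did. The list median was -0.01, against 0.13 over all tested genes. The alcohol dehydrogenase gene adh4 rose by 6.92 ± 0.18 and adh1 fell by 3.42 (SE 0.43; limma, adjusted p = 0.000226 and 0.0124). As with pdc101 and pdc201, the more abundant gene of the pair differed between the groups: adh4 was at 3320 and 3602 FPKM and adh1 at 30.6 and 67.6 FPKM in the delta-labelled libraries, while adh4 was at 23.3 and 32.8 FPKM and adh1 at 386 and 642 FPKM in wild type. Other transcripts cover 93.2% of adh1, so its value is uncertain. The aldehyde dehydrogenase gene atd1, whose enzyme can take acetaldehyde to acetate, was at 490 and 528 FPKM in the delta-labelled libraries, against 583 and 450 FPKM in wild type. Like atd1, the acetyl-CoA ligase gene acs1 (0.55) and the alcohol dehydrogenase gene adh8 (-0.30) were not called.

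In a list for pyruvate entry and use in mitochondria, 4 of 9 genes rose and none fell, where 11.9% and 4.37% of all tested genes did. The list median was 0.35, against 0.13 over all tested genes. The annotation of the list member mae2 does not by itself place that gene on this route. The rises were those of mae2, annotated as a malate dehydrogenase (1.26 ± 0.14), the mitochondrial pyruvate carrier gene mpc1 (0.64 ± 0.10), and pdx1 (0.56 ± 0.12) and pdb1 (0.48 ± 0.09) of the pyruvate dehydrogenase complex (log2, SE). Their adjusted p from limma was 0.00935, 0.0229, 0.0442 and 0.032, and the calls of pdx1 and pdb1 were lost after rescaling. The dehydrogenase complex genes pda1, lat1 and dld1 had changes of 0.35, 0.35 and 0.34 and the pyruvate carboxylase gene pyr1 one of 0.29, and none of the 4 was called. In these libraries pda1 was at 513 and 529 FPKM in the delta-labelled libraries, against 411 and 406 FPKM in wild type.

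The cofactor of the decarboxylases is made from thiamine. A list of 8 genes was drawn up for thiamine supply, though it includes bsu1, which is annotated as an importer of vitamin B6. In this list 3 genes rose and none fell, where 11.9% and 4.37% of all tested genes did. The list median was 0.71, against 0.13 over all tested genes. The rises were those of the thiamine-repressible phosphatase gene pho4 (2.52 ± 0.25), the vitamin B6 import gene bsu1 (1.90 ± 0.24) and the thiamine synthesis gene thi4 (0.99 ± 0.10; log2, SE, with limma adjusted p = 0.00689, 0.0124 and 0.0065). All 3 calls were kept after rescaling, though other transcripts cover 37.7% of thi4. The gene tnr3, which encodes the diphosphokinase that makes thiamine diphosphate itself, was at 27.7 and 26.8 FPKM in the delta-labelled libraries, against 25.3 and 24.7 FPKM in wild type and was not called (adjusted p = 0.479). Neither were nmt1 (1.03, fully overlapped by other transcripts), the regulator gene thi5 (0.43), the thiazole synthesis gene thi2 (-0.35) and the thiamine transporter gene thi9 (-0.02). None of the 3 genes of other thiamine diphosphate enzymes was called: the transketolase gene tkt1 had a change of 0.63, the acetolactate synthase gene ilv1 one of 0.35 and the oxoglutarate dehydrogenase gene kgd1 one of -0.69. At an unadjusted p under 0.05 in limma, kgd1 alone would pass among them.

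**Figure D5:**
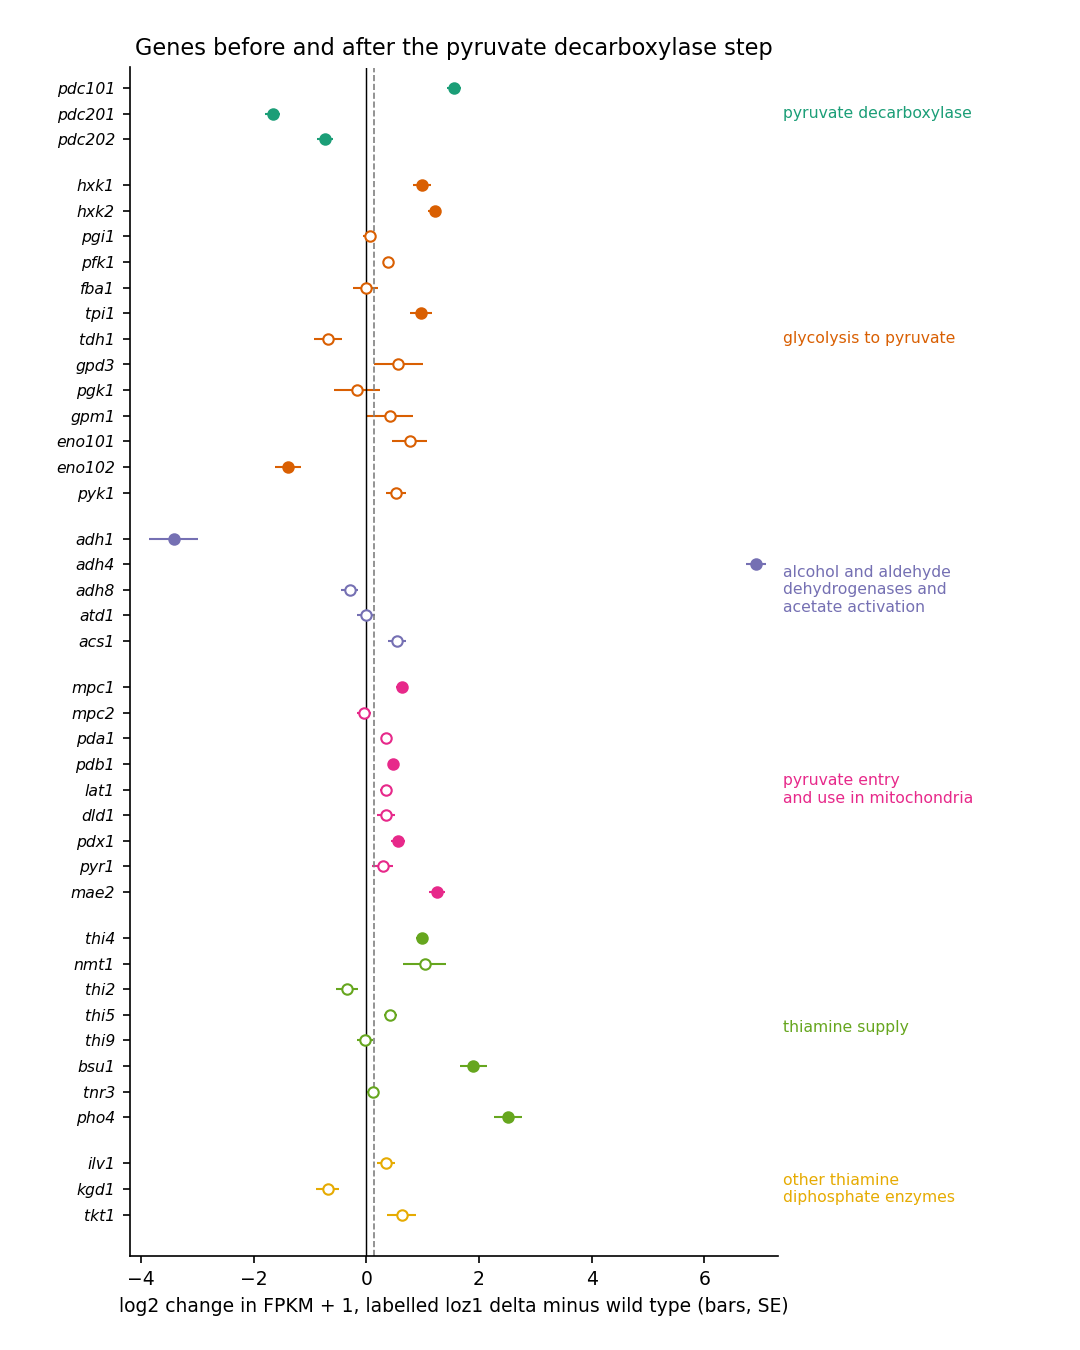
Log2 change with its SE (labelled loz1 delta minus wild type) of the 3 tested pyruvate decarboxylase genes and of the 38 genes of 5 pathway lists, filled where the adjusted p was under 0.05. The solid line marks 0 and the dashed line the median of all tested genes, 0.13. The decarboxylase genes pdc101 (1.56) and pdc201 (-1.66) lie on opposite sides, as do adh4 (6.92) and adh1 (-3.42).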

How the data were processed

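RNA-seq values of 4 libraries were used, 2 labelled loz1 delta and 2 wild type. The authors deposited 1 file per library with an FPKM value and bounds for each of 7093 annotated transcripts of 7092 genes, made with Cufflinks per the file headers. The submitters' processing notes name HISAT2 and SAMtools beside Cufflinks and Cuffdiff, and the build ASM294v2, while settings and versions are not stated. The score column that the authors deposited, from Cufflinks per the file headers, was not used.

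FPKM was summed per gene and not rescaled. Tested were genes whose mean reached 1 FPKM and whose longest transcript reached 200 nt, as log2(FPKM + 1), so that changes of low genes come out too small, using limma 3.58.1 in R 4.3.3 (intensity trend, Benjamini-Hochberg adjustment). The fit was also run on simulated data with known changes. These gave every gene of a group the same spread, which real genes do not have, so they do not bear on the calls given here. Gene names and sequences are from RefSeq ASM294v3, whose own coordinates were used for sequences, and 6746 gene identifiers matched it. Other coordinates are those of the files. Proteins were translated from RefSeq coding sequences and aligned globally (Biopython 1.88, BLOSUM62, gap scores -11 and -1). Depth was estimated from the bounds, taken as 2 Poisson standard errors.

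The members, lists and rules were chosen with earlier results of these data known. Named were all members, the called list members and up to 4 more per list with the smallest p, overlapping or nearest transcripts, and the 3 genes of at least 5 FPKM with the nearest profile. The list members thi9 and gpm1 were named beside this rule. Alternatives were other pseudocounts, filters, scalings and priors, leaving out libraries, and a replicate block.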

Additional observations from a re-analysis of the deposited data

How the results depend on the processing

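The directions of pdc101, pdc201 and pdc202 held in every fit run, and the calls of pdc101 and pdc201 held with the other pseudocounts, filters, scalings and prior. With no filter on low values the call of pdc202 was lost (-0.73, adjusted p = 0.0829, with 0.0145 to 0.38 over all its alternatives), list members called were 6 higher and 0 lower in place of 11 and 2, and 315 genes were higher and 111 lower over all in place of 753 and 276. The higher genes over all numbered 428 after median-ratio rescaling and 410 after quantile normalization. With a library left out, the change ran from 1.44 to 1.67 for pdc101, from -1.78 to -1.54 for pdc201 and from -0.83 to -0.63 for pdc202. List members called then ran from 1 to 22 higher and from 1 to 5 lower, and all genes from 73 to 2115 higher and from 40 to 880 lower. The counts were lowest without a delta-labelled and highest without a wild-type library. The log2 ratio of family totals was -0.10 after median-ratio rescaling, 0.25 after quantile normalization and -0.0067 to 0.10 with a library left out, while the gain of pdc101 in share stayed at 47.0 to 53.3 percentage points.

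Same-numbered libraries did not deviate together (correlation across genes -0.01). With 2 libraries per group this cannot tell whether they were prepared as pairs. With the replicate block pdc101, pdc201 and pdc202 stayed called (1.56, -1.66 and -0.73, adjusted p = 0.00675, 0.00535 and 0.0494), and 538 genes were higher and 224 lower. Depth limits pdc102, with at most about 7 fragments in a library.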
